A study of Mus musculus with 9 samples.

Results

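Matrix metalloproteinases are zinc-dependent enzymes that cut the proteins of the extracellular matrix. Their genes were taken by name from the table of this mouse skin study: Mmp1b, Mmp2, Mmp3, Mmp8, Mmp9, Mmp10, Mmp12, Mmp13, Mmp14 and Mmp19. All 10 were present among 19505 named genes, each represented by 1 row, the one of highest mean where a gene had several. The samples were back skin of C57BL/6J mice aged 8 weeks, all of which received 5% imiquimod cream daily for 7 days; imiquimod is a Toll-like receptor agonist that produces a psoriasis-like dermatitis. In 5 samples (stretch, labelled IMQ+F) the skin was also pulled by a glued plastic device lengthened by 10 mm, and in 4 samples (no stretch, labelled IMQ+N) it was not. The protocol does not say whether non-stretched skin carried the glued device, so the device and the stretch cannot be told apart. No skin without imiquimod was analysed here, and changes due to imiquimod itself cannot be read. Whether the samples are separate mice is not stated, and the p-values describe only the spread among these samples, part of which may be technical.

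Metalloproteinases are secreted or membrane-bound proenzymes in which a cysteine of the propeptide blocks the zinc ion until the propeptide is removed. Collagenases cut the triple helix of fibrillar collagen, gelatinases digest the unwound chains and basement membrane collagen, and stromelysins act on proteoglycans, laminin and fibronectin and also activate other proenzymes. Tissue inhibitors of metalloproteinases (TIMPs) bind the active enzymes. In skin, keratinocytes, fibroblasts, macrophages and neutrophils each make a part of the set, and transcription of many of the genes is known to be driven by interleukin-1 and by AP-1, a dimer of Fos and Jun family proteins.

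Of the 10 genes, 6 lie in a single block on chromosome 9. In the RefSeq gene table (assembly GRCm38.p6) the protein-coding genes between Dcun1d5 and Tmem123 are 10 metalloproteinase genes in the order Mmp13, Mmp12, Mmp1b, Mmp3, Mmp1a, Mmp10, Mmp8, Mmp27, Mmp20 and Mmp7. The other 4 genes described here (Mmp2, Mmp9, Mmp14 and Mmp19) lie on other chromosomes. The 120 bases before the annotated start are shown for 5 genes of the block, 4 of them because they hold a match to the AP-1 motif TGANTCA and Mmp8 because it does not; capitals mark the motif. Sequences are from RefSeq, build GRCm38.p6, written 5′ to 3′ on the strand of the gene. The windows are chr9:7272394-7272513 (+ strand) for Mmp13, chr9:7388027-7388146 (- strand) for Mmp1b, chr9:7445702-7445821 (+ strand) for Mmp3, chr9:7502222-7502341 (+ strand) for Mmp10 and chr9:7558309-7558428 (+ strand) for Mmp8.
Mmp13: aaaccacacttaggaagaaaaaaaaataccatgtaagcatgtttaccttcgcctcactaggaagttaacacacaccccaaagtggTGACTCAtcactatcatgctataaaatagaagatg
Mmp1b: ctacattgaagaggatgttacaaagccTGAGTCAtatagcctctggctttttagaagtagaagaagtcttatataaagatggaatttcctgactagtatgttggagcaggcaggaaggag
Mmp3: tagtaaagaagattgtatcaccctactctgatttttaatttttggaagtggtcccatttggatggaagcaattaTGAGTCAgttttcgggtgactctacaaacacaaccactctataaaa
Mmp10: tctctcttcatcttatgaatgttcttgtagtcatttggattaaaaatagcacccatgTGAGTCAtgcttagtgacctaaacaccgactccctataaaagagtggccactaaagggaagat
Mmp8: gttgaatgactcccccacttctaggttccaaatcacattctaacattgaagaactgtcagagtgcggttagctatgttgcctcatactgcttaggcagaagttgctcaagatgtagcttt

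The motif, which reads the same on both strands, begins 35 bases before the start in Mmp13, 46 in Mmp3, 63 in Mmp10 and 93 in Mmp1b. Mmp12 has 2 annotated starts, and the motif lies 44 bases before the second of these and is not in the window of the first. Within 250 bases before the start the motif was found in 5 of the 7 genes with a promoter sequence (Mmp1b, Mmp3, Mmp10, Mmp12 and Mmp13, but not Mmp8 or Mmp14). It was in 6.75% of all 32851 promoter windows of that length. The first count is of genes with the motif in any window, and the second is of windows. The 5 genes are also neighbours in a single block, and the shares were not tested against each other. Mmp2, Mmp9 and Mmp19 had no sequence in the table used. Over the whole block, 8 of 10 genes held it in at least 1 window, Mmp1a, Mmp7 and Mmp20 among them, against none of 8 metalloproteinase genes elsewhere in the genome. The ETS core GGAA, searched on both strands, was in every window of these 7 genes but also in 93.4% of all windows, so it does not set them apart. A match describes these letters only, and binding was not measured.

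Expression was read from arrays as log2 values, so a difference of 1 is a doubling. Array medians lay between 5.81 and 5.99. The arrays that limma weighted least were stretch replicate 1 (0.55) and no-stretch replicate 3 (0.58), and the latter also correlated least with the rest. Keratinocyte markers averaged between 15.09 and 15.97 on all arrays, and skeletal muscle markers between 14.69 and 16.63, so the samples held skin together with muscle RNA. In bulk tissue, fewer cells of a type and less RNA per cell cannot be told apart.

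With stretch, the 3 collagenase genes were higher on every stretched array than on every non-stretched one, and Mmp13 passed the test. The same held for Mmp9, a gelatinase. The stromelysins Mmp3 and Mmp10 were more than 2-fold higher on average with overlap between the groups. Mmp12 was 1.68-fold higher with wide overlap, and Mmp2, Mmp14 and Mmp19 differed by less than 1.5-fold. Of the 10 genes 8 had a positive change, with a median log2 change of 1.33, beside -0.003 and 49.6% positive over all genes tested. One gene, Mmp13, passed limma's test at an adjusted p of 0.05 over all genes, where 0.0820% of all genes passed in that direction and 0.246% in either. The groups did not overlap for 4 of the 10 genes, all higher with stretch, where 2.38% of all genes were separated in that direction. In limma's test 6 of the 10 had an unadjusted p under 0.05, beside 2533 of all 19505 genes. These shares describe the genes and were not tested as a set, because the genes were chosen with earlier results known.

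**Figure D1:**
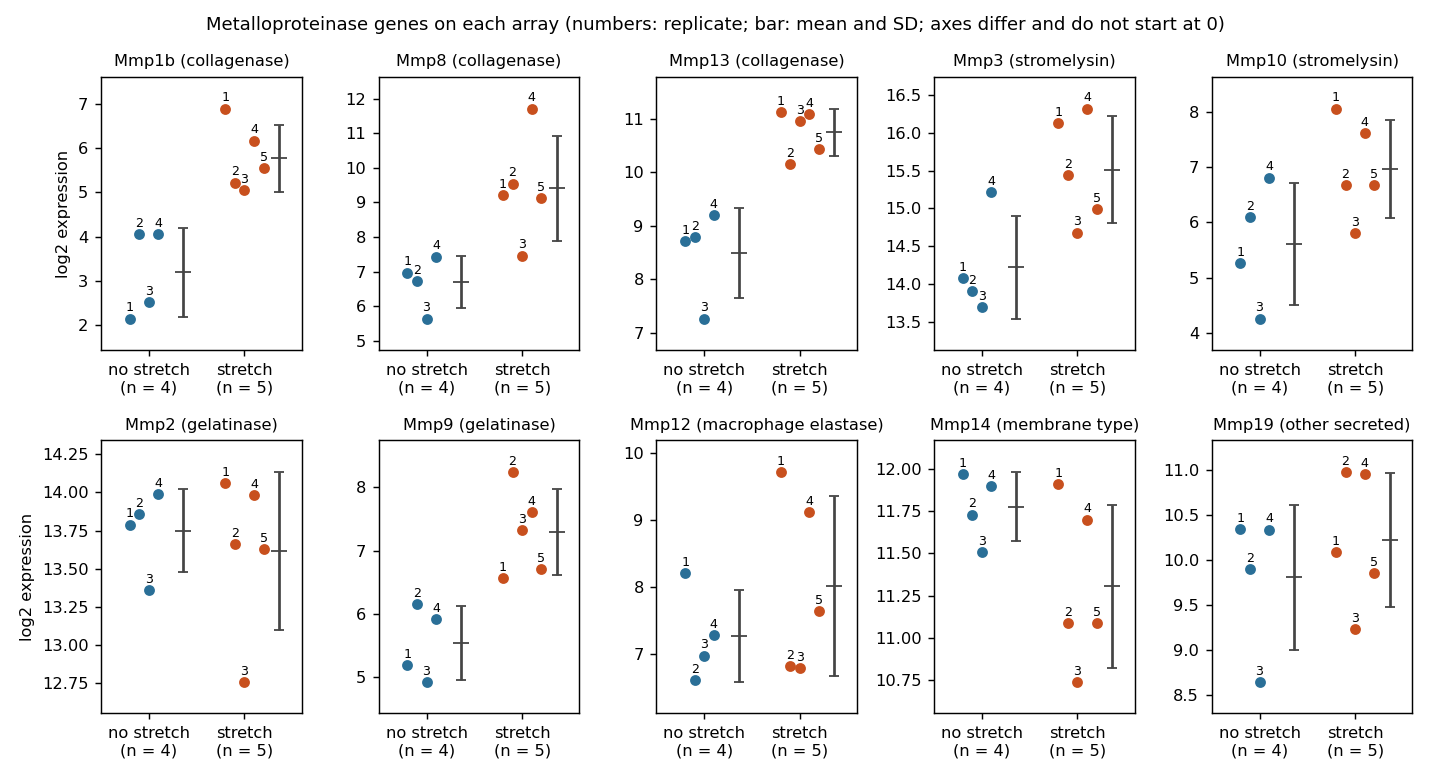
Log2 expression of each of the 10 genes on every array, in non-stretched (blue, n = 4) and stretched (orange, n = 5) skin; numbers give the replicate, and dark bars the mean and SD. Axes differ between panels and do not start at 0. Mmp1b, Mmp8, Mmp13 and Mmp9 do not overlap between the groups, and in Mmp8 only 0.03 separates stretch replicate 3 from no-stretch replicate 4.

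Mmp13 encodes collagenase 3, the main interstitial collagenase of rodents. Its log2 level was 11.13, 10.15, 10.96, 11.09 and 10.43 in stretch replicates 1 to 5, and 8.72, 8.79, 7.27 and 9.20 in no-stretch replicates 1 to 4. The stretched samples lay close together (SD 0.44, n = 5), all at least 0.94 above the highest non-stretched one. The mean rose from 8.497 ± 0.84 (SD, n = 4) to 10.75, a log2 change of 2.25 ± 0.36 (SE; 95% confidence interval 1.47 to 3.04), which is 4.77-fold, with limma adjusted p = 0.032. The call rested on the full set of arrays: it held in 2 of the 9 fits that left out 1 array, those lacking stretch replicate 3 or no-stretch replicate 4, and the adjusted p ranged from 0.034 to 0.12 over the 9. The log2 change ranged from 1.85, without no-stretch replicate 3, to 2.49.

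Mmp1b and its neighbour Mmp1a are the mouse genes most related to human interstitial collagenase (MMP1). Mmp1b was at 6.89, 5.22, 5.05, 6.17 and 5.54 with stretch and at 2.15, 4.06, 2.52 and 4.06 without. Every stretched value exceeded every non-stretched one by at least 0.99, and the non-stretched values lay low on the array scale, where normalized log2 values are compressed and detection was not assessed. The log2 change was 2.58 ± 0.47 (SE; 95% confidence interval 1.54 to 3.61), or 5.96-fold, with limma adjusted p = 0.053, which missed the threshold. It passed when stretch replicate 3 (0.034) or no-stretch replicate 4 (0.043) was left out.

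Mmp8, the collagenase stored in neutrophil granules, varied most of the 10. Its values were 9.20, 9.54, 7.46, 11.71 and 9.12 with stretch, and 6.97, 6.73, 5.64 and 7.43 without. Stretch replicate 4 stood highest, and stretch replicate 3 was only 0.03 above no-stretch replicate 4. The log2 change of 2.71 was the greatest point estimate among the 10 genes, but its standard error was 0.67 (95% confidence interval 1.26 to 4.17; 6.57-fold; limma adjusted p = 0.12). Without stretch replicate 3 the change was 3.20 and passed (limma adjusted p = 0.033).

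**Figure D2:**
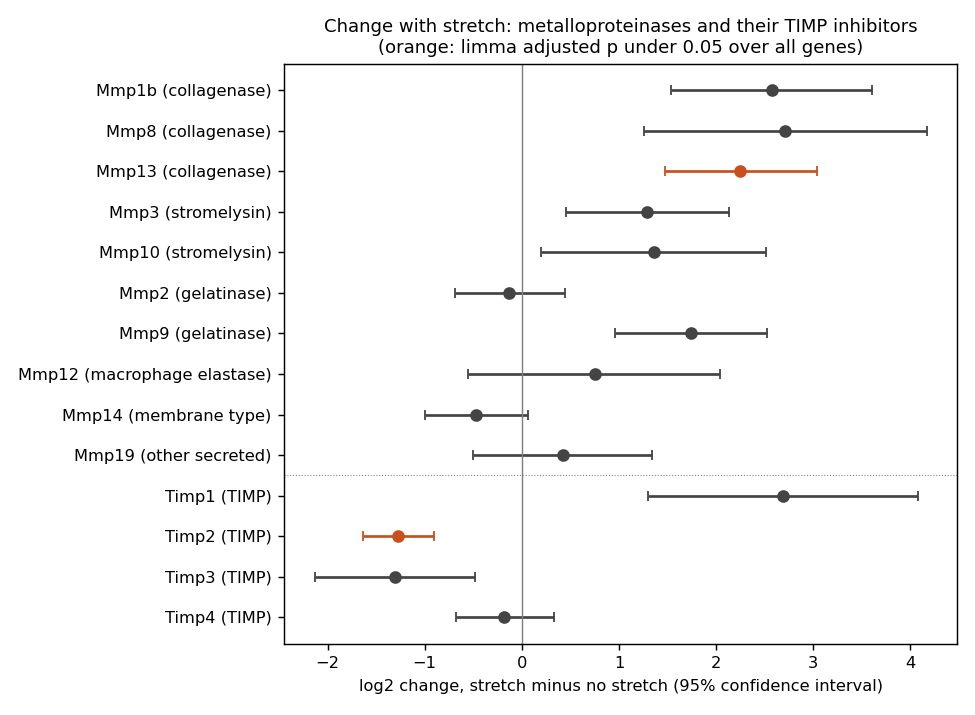
Log2 change (stretch minus no stretch) with its 95% confidence interval for the 10 metalloproteinase genes and, below the dotted line, the 4 TIMP genes; orange marks a limma adjusted p under 0.05 over all genes. Mmp13 (2.25) and Timp2 (-1.27) passed, and the intervals of Mmp2, Mmp12, Mmp14, Mmp19 and Timp4 include 0.

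The stromelysin genes flank Mmp1a in the block. Mmp3, stromelysin 1, is made by dermal fibroblasts and wounded epidermis. Its level was 16.13, 15.44, 14.68, 16.32 and 14.99 with stretch and 14.08, 13.90, 13.69 and 15.21 without. The groups overlapped because no-stretch replicate 4 stood above stretch replicates 3 and 5. The log2 change was 1.29 ± 0.38 (SE; 95% confidence interval 0.45 to 2.13), or 2.45-fold, with limma adjusted p = 0.19.

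Mmp10, stromelysin 2, is known from migrating keratinocytes at wound edges. It was at 8.06, 6.68, 5.81, 7.61 and 6.68 with stretch and at 5.27, 6.10, 4.26 and 6.81 without. Only stretch replicates 1 and 4 exceeded no-stretch replicate 4, the highest of its group. The log2 change was 1.36 ± 0.53 (SE; 95% confidence interval 0.20 to 2.51), or 2.56-fold, with limma adjusted p = 0.31. It was 0.91 without no-stretch replicate 3 and 1.76 without no-stretch replicate 4.

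The gelatinase genes gave different values. Mmp9, which neutrophils store and keratinocytes and macrophages can induce, was at 6.57, 8.24, 7.32, 7.61 and 6.71 with stretch and at 5.19, 6.16, 4.93 and 5.92 without. All stretched values exceeded all others, by at least 0.42. The log2 change was 1.74 ± 0.36 (SE; 95% confidence interval 0.96 to 2.52), or 3.34-fold, with limma adjusted p = 0.070, and it passed in none of the 9 fits that left out 1 array (0.055 to 0.24).

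Mmp2, the gelatinase that fibroblasts make without stimulation, was at 14.06, 13.66, 12.76, 13.98 and 13.63 with stretch and at 13.79, 13.86, 13.36 and 13.99 without. The groups overlapped, with stretch replicate 3 below all others. Its log2 change was -0.13 (95% confidence interval -0.69 to 0.44; limma adjusted p = 0.87), and it was 0.09 without stretch replicate 3, so no direction is given. The intervals of Mmp2 and Mmp9 do not overlap, but the difference between their changes was not tested.

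Mmp14 encodes the membrane-type enzyme that activates the Mmp2 proenzyme at the cell surface together with Timp2. It was at 11.91, 11.09, 10.74, 11.70 and 11.09 with stretch and at 11.97, 11.73, 11.51 and 11.90 without. Stretch replicates 2, 3 and 5 lay below all non-stretched samples, and replicates 1 and 4 lay among them. The log2 change was -0.47 ± 0.24 (SE; limma adjusted p = 0.44), negative in all 9 fits that left out 1 array.

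Mmp12, the macrophage elastase, was at 9.72, 6.82, 6.79, 9.12 and 7.64 with stretch and at 8.21, 6.61, 6.98 and 7.29 without. Stretch replicates 1 and 4 stood above all other arrays, and replicates 2 and 3 lay within the non-stretched range. The log2 change was 0.75 (95% confidence interval -0.55 to 2.04; limma adjusted p = 0.63), and it was 0.32 without stretch replicate 1. Mmp19, a secreted enzyme of stroma and epidermis, was at 10.09, 10.98, 9.24, 10.96 and 9.86 with stretch and at 10.35, 9.90, 8.65 and 10.34 without. Its groups overlapped widely (log2 change 0.42, 95% confidence interval -0.50 to 1.34; limma adjusted p = 0.72), and the change was 0.03 without no-stretch replicate 3 and 0.66 without stretch replicate 3.

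By position, the 6 genes of the chromosome 9 block described here had log2 changes from 0.75 to 2.71 with a median of 1.81, and the 4 elsewhere from -0.47 to 1.74 with a median of 0.14. Mmp1a, the paralogue of Mmp1b in the same block, was at 6.08, 4.98, 4.78, 4.31 and 4.78 with stretch and at 3.35, 3.50, 3.92 and 4.29 without. It was thus higher on every stretched array, though by only 0.02 between the nearest samples (log2 change 1.22, 95% confidence interval 0.51 to 1.93; limma adjusted p = 0.15). Mmp1a and Mmp1b are close copies, and cross-hybridization between their probes was not tested. The 2 measured genes at the end of the block, Mmp20 and Mmp7, changed by -0.07 (95% confidence interval -0.41 to 0.26) and 0.21 (-0.35 to 0.77) on the log2 scale. Both hold the AP-1 motif in a promoter window (Mmp20 as TGAATCA, Mmp7 before 1 of its 2 starts), but they were low on the array scale (group means of 4.05 and 3.97 for Mmp20, 2.75 and 2.96 for Mmp7, without and with stretch), where changes are compressed and detection was not assessed. Mmp8 lacked the motif in its window and had a log2 change of 2.71.

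**Figure D3:**
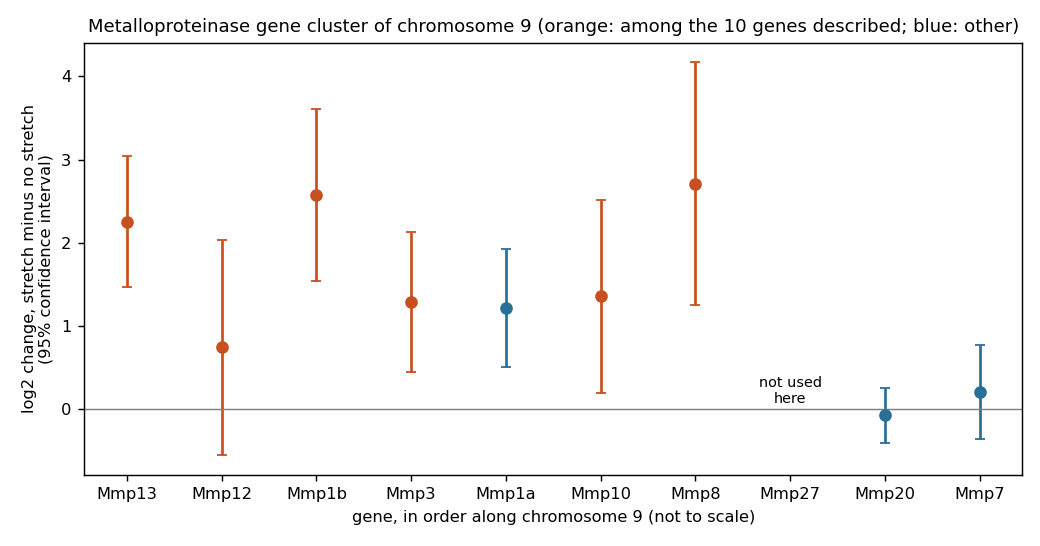
Log2 change (stretch minus no stretch, with 95% confidence interval) of the metalloproteinase genes in their order along chromosome 9, not to scale; orange genes are among the 10 described, blue genes are others of the block, and Mmp27 was not used here. The 7 genes from Mmp13 to Mmp8 lie between 0.75 and 2.71, and Mmp20 and Mmp7 lie near 0.

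Outside the 10, limma called none of 11 further measured metalloproteinase genes in either direction. Of these, 2 had an unadjusted p under 0.05 in that test, beside 2533 of all 19505 genes. The median log2 change of the 11 was 0.04, with 6 positive. Of these 11, 9 had group means of only 2.73 to 4.99, low on the array scale, so a small change there does not show a constant level. The smallest p-values were those of Mmp1a, of Mmp23, a membrane-anchored enzyme (log2 change -0.49, limma adjusted p = 0.30), and of Mmp11, stromelysin 3, which is activated by furin inside the cell (0.60, limma adjusted p = 0.41). Mmp15 and Mmp27 were not used here.

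The inhibitors did not move as one. Timp2, which inhibits metalloproteinases and also takes part in Mmp2 activation, was the only one of 8 measured inhibitor genes past the threshold. Of all genes, 0.164% were called lower with stretch and 0.246% in either direction. Timp2 was at 13.28, 13.29, 12.84, 12.86 and 13.28 with stretch and at 14.52, 14.48, 14.26 and 14.26 without. The groups were far apart relative to their spread, and the log2 change was -1.27 ± 0.17 (SE; 95% confidence interval -1.64 to -0.90), or 2.41-fold lower, with limma adjusted p = 0.021. It passed in 5 of the 9 fits that left out 1 array, and not without stretch replicate 2 or without no-stretch replicate 1, 2 or 3 (up to 0.080). Timp1, the inhibitor induced by cytokines and the binding partner of the Mmp9 proenzyme, was at 12.74, 13.42, 10.97, 14.15 and 12.00 with stretch and 9.75, 9.96, 8.70 and 11.47 without. Its log2 change was 2.69 (95% confidence interval 1.30 to 4.08; 6.44-fold; limma adjusted p = 0.11), and stretch replicate 3 lay below no-stretch replicate 4. Without stretch replicate 3 it was 3.11 and passed (limma adjusted p = 0.037). Timp3, which stays bound to the matrix, changed by -1.31 on the log2 scale without passing (95% confidence interval -2.13 to -0.48; limma adjusted p = 0.18). The median log2 change of the 8 inhibitor genes was -0.23.

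Of 17 measured genes for activators of the proenzymes, limma called 0 over all genes. An unadjusted p under 0.05 was found for 5 of them, beside 2533 of all 19505 genes. The median log2 change of the activator genes was -0.20. Those of smallest p were the proprotein convertases Pcsk6, at -1.30 (limma adjusted p = 0.082), and Pcsk5, at 1.20 (0.21), with the urokinase receptor Plaur at 2.04 (0.19) and urokinase itself, Plau, at 0.74 (0.20). Pcsk6 passed without stretch replicate 3 (limma adjusted p = 0.037), and so did Plaur and Pcsk5 (both 0.023).

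Cytokines and growth factors known to induce metalloproteinases were listed together with the brakes Il1rn and Tgfb1. Of 13 measured genes of this list, 12 had a positive change (median 0.54). An unadjusted p under 0.05, which 2533 of all 19505 genes had, was found for 5 of these genes, and limma called none over all genes. Il1b and Il6 had log2 changes of 3.71 and 4.19 (limma adjusted p = 0.070 and 0.076), Osm, oncostatin M, of 1.81 (0.15) and the growth factor Hbegf of 1.75 (0.099). Il1b and Il6 were higher on all stretched arrays, as the collagenases and Mmp9 were. Within the groups stretch replicate 3 was lowest and no-stretch replicate 4 highest for both. The same held for Mmp1b, Mmp3, Mmp8, Mmp10 and Timp1, and for Mmp2, whose log2 change was -0.13. It did not hold for the collagenase Mmp13, whose lowest stretched array was replicate 2. As it held for Mmp2, Mmp3, Mmp10 and Timp1, the pattern is not particular to the collagenases. Of 15 measured transcription factors of metalloproteinase promoters, 9 were positive (median 0.10) and limma called none (4 at an unadjusted p under 0.05). The 4 of smallest p were Cebpb (0.82, limma adjusted p = 0.20), the AP-1 subunits Junb (1.23, 0.21) and Fosl1 (0.78, 0.33), and the ETS factor Etv5 (0.59, 0.23).

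Genes for the matrix that these enzymes cut were lower more often than higher, with 17 of 23 measured negative and a median log2 change of -0.34. The changes ranged from -1.83 to 2.11. The groups did not overlap for 5 lower and 2 higher genes, beside 420 lower and 465 higher of all 19505. In limma's test 14 of the 23 had an unadjusted p under 0.05, beside 2533 of all genes. Past the threshold were 2, both lower, where 0.164% of all genes passed in that direction. Nid1, a link protein of basement membranes, fell 2.72-fold with a log2 change of -1.44 (limma adjusted p = 0.0087), and Fn1, fibronectin, fell 3.55-fold with a change of -1.83 (limma adjusted p = 0.038). With each array left out in turn, Nid1 passed every time and Fn1 in 1 of 9 fits, the one without stretch replicate 3. Eln, elastin, and Col1a2, a chain of type I collagen, had log2 changes of -1.04 and -0.82 (limma adjusted p = 0.070 and 0.077). These are transcript levels of the substrates; protein cleavage was not measured.

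Marker lists of the cells that make metalloproteinases are given beside these values. Of 15 measured neutrophil markers 14 were positive, with a median log2 change of 0.59. An unadjusted p under 0.05, which 2533 of all 19505 genes had, was found for 7 of these markers, and limma called none. Their mean level was 8.11 to 9.39 with stretch and 6.99 to 7.82 without, and Clec4e and Stfa2l1 had the smallest p (log2 change 3.18 and 1.81; limma adjusted p = 0.053 and 0.062). All 12 measured macrophage markers were positive (median 0.51; limma called 0, with 3 at an unadjusted p under 0.05), with a mean level of 11.19 to 12.39 against 10.52 to 11.86; Cd14 and Msr1 had the smallest p (2.26 and 1.66; limma adjusted p = 0.13 and 0.22). Of 10 measured fibroblast markers 9 were negative (median -0.45), and the groups did not overlap in their mean level (11.22 to 11.71 with stretch, 12.12 to 12.32 without). Of these, 3 passed and all were lower, beside 0.164% of all genes called lower, among them Cd34 (-1.60, limma adjusted p = 0.0046) and Dpt (-2.30, limma adjusted p = 0.025). Lum and Dcn are in this list and in that of the matrix substrates. The mean level of keratinocyte markers overlapped between the groups (15.09 to 15.93 with stretch and 15.51 to 15.97 without; median change -0.08). Of 11 measured keratinocyte markers 4 were positive and 7 negative. An unadjusted p under 0.05 was found for 6 of them, beside 2533 of all 19505 genes, and limma called none. Lor was at -0.98 and Dsg3 at 0.97 (limma adjusted p = 0.21 and 0.22), so the median does not describe each marker. No marker of endothelium, skeletal muscle, adipocytes, mast cells or T cells passed limma's test, and their median log2 changes were 0.56, -0.06, -0.81, -0.11 and -0.30 in that order, with 2, 0, 4, 2 and 1 genes at an unadjusted p under 0.05. The adipocyte genes Plin1 and Adipoq, at -1.51 and -1.75, had limma adjusted p = 0.053 and 0.076. The mean level of mast cell markers did not overlap between the groups (5.51 to 5.84 with stretch, 5.93 to 6.12 without). Of 7 mast cell markers 5 were negative, and of 7 endothelial markers 5 were positive. Cpa3 of the mast cell list and Tek of the endothelial list were lower on every stretched array (-1.35 and -0.84, limma adjusted p = 0.084 and 0.078). The part of cell numbers in the metalloproteinase changes was not tested.

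Within the groups, most of the 10 genes went up and down together. Stretch replicate 3 was the lowest stretched array for 8 of the 10 (all but Mmp9 and Mmp13), and no-stretch replicate 3 the lowest of its group for 8 (all but Mmp1b and Mmp12). No-stretch replicate 4 was the highest of its group for 6 and stretch replicate 1 for 6. Pearson's r between deviations from the group means over the 9 arrays was positive for 43 of 45 gene pairs, with a median of 0.58; all pairs share the same 9 arrays, and r is given as a description. The closest pairs were Mmp12 with Mmp14 (0.93), Mmp1b with Mmp10 (0.88), and Mmp2 with Mmp10 and Mmp14 (0.87 for each). Mmp9 was the least alike, with values from -0.48 (Mmp12) to 0.58 (Mmp19) and a median of 0.18. Its highest stretched array was replicate 2, which also had the highest mean of neutrophil markers, while stretch replicate 4 was highest for Mmp8 and nearly equal for those markers (9.37).

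**Figure D4:**
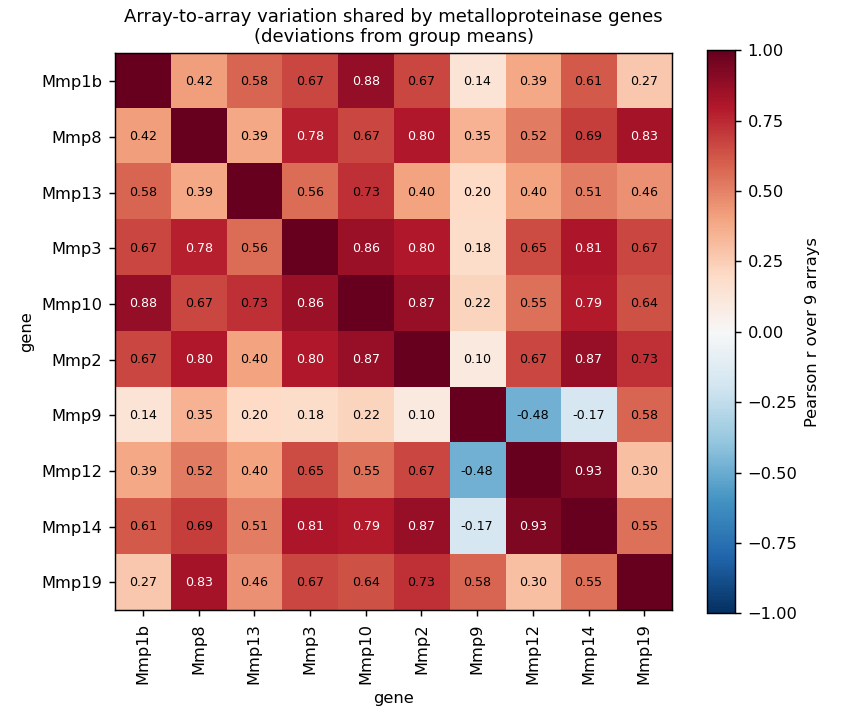
Pearson's r between the 10 genes over 9 arrays, computed on deviations from the group means so that the difference between the groups does not enter. Mmp9 has the palest row, with values between -0.48 and 0.58, and the other pairs are all positive.

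The same deviations were set beside the mean of the marker lists. For neutrophil markers r was 0.91 for Mmp19, 0.84 for Mmp8, 0.79 for Mmp2, 0.73 for Mmp3 and 0.72 for Mmp10. It was lower for Mmp9 (0.66), Mmp14 (0.56), Mmp1b (0.50), Mmp13 (0.33) and Mmp12 (0.25). For macrophage markers it was 0.95 for Mmp10, 0.92 for Mmp3, 0.58 for Mmp12 and 0.19 for Mmp9. Mmp12, named for the macrophage, was below 8 of the other 9 genes in this respect, and Mmp2 was close to both lists (0.79 and 0.86). For fibroblast markers r was highest for Mmp2 (0.73), Mmp14 (0.69), Mmp10 (0.65) and Mmp3 (0.64). Each of these had a higher r with macrophage markers (0.86, 0.77, 0.95 and 0.92 in that order). With keratinocyte markers r was negative for all 10 genes, from -0.64 (Mmp3) to -0.08 (Mmp13).

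Over the 9 arrays as a whole, the genes most like the 3 widest-ranging members were named by the highest Pearson's r, which here includes the difference between the groups. For Mmp8 they were Pla2g7, a lipoprotein-associated phospholipase (0.987), Bst1, a cell-surface ectoenzyme (0.974), and Mdm1 (0.973). For Mmp1b they were Ecscr, an endothelial surface protein (0.969), Tsn (0.968) and Mrpl13, a mitochondrial ribosomal protein (0.964). For Mmp13 they were Serpinb1c, a serpin (0.977), Ero1a, an oxidase of the endoplasmic reticulum (0.966), and Cnnm2 (0.964). None of these 9 genes passed limma's test (adjusted p from 0.11 to 0.30). They are the extremes of 19505 genes over few arrays and are given as a description.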

How the data were processed

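Total RNA of 9 skin samples was labelled with biotin and hybridized to Affymetrix arrays, per the labels' protocols. The deposited values are log2 expression values for 22206 rows (transcript clusters); RMA and Transcriptome Analysis Console are named, without versions, per the submitters' processing notes. RMA commonly adjusts background and quantile-normalizes probes, which can compress low values, so folds of dim genes may be understated. Whether they are was not tested here. Genome build, annotation version and any filter on rows stay unnamed (not given in the sources used here). Detection was not assessed.

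Platform annotation gave 19572 rows 1 gene symbol, and 2634 had none; of 55 genes with several rows the brightest was used. Symbols looked up by Entrez identifier in RefSeq were the same for all 19572. None of the 10 genes shared identical values with another gene.

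Stretch minus no stretch was fitted with lmFit and eBayes of limma 3.58.1 (R 4.3.3), two-sided, without covariates, and adjusted by Benjamini-Hochberg over 19505 genes (threshold 0.05). Precision is limited by the small number of arrays (median standard error 0.212). The fit was tested on simulated data. The members, gene lists and tests were chosen with earlier results of these data known, so no p is adjusted over a list. Named were the members, inhibitors and further metalloproteinases by threshold or smallest p (3 each), up to 4 of smallest p per pathway list, up to 2 per marker list, and 3 similar genes for each of 3 members; Mmp7 and Mmp20 were added as members of the block and Timp4 in a plot, after their values were seen. Alternatives covered scaling, filters that drop the 25% or 50% of genes with the lowest mean, row choice, variance model, weights, a replicate block, the threshold and left-out arrays.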

Additional observations from a re-analysis of the deposited data

Results flagged for a closer look

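In a check of each group of 4 or 5 arrays for every named gene (118 groups of 59 genes), 2 single arrays stood far from the rest of their group, and chance alone marks about 1 group in 20. Neither concerned a metalloproteinase. Col1a2 was at 16.11 in no-stretch replicate 4, against 15.70 to 15.74 in the other 3. Tek, a receptor of endothelial cells, was at 6.28 in stretch replicate 1, against 6.75 to 6.81 in the other 4.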

How the results depend on the processing

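The number of metalloproteinase genes past the threshold (1 of 10 as reported) was 2 under quantile normalization, with eBayes trend and under the milder filter on dim genes (Mmp1b and Mmp13 each time), 2 under the stricter filter (Mmp13 and Mmp9; Mmp1b falls below that filter), 3 with array weights, 3 at an adjusted p of 0.1, and 0 without both stretch replicate 1 and no-stretch replicate 3. Leaving out single arrays gave 0 to 3, with 3 without stretch replicate 3, 2 without no-stretch replicate 4 and 0 without any other array. Over all genes, 48 calls became 105 and 103 under the filters, 157 with array weights, 211 at 0.1 and 15 without both arrays, and 2 to 195 without single arrays. With the replicate number as a block 4 metalloproteinase genes passed (Mmp3, Mmp8, Mmp9 and Mmp13) and 221 of all genes. Stretch replicate 5 has no same-numbered partner, so it does not inform the change in that fit. The log2 change of Mmp13 was 2.33 in the block fit and also 2.33 without stretch replicate 5. Whether the numbers pair the samples is not known. Same-numbered arrays had correlations of deviations from -0.062 to 0.34, with 1 of 4 above 0.1, and 1 stretched array was closest to its own number. So few correlations cannot settle the pairing, and the block fit is given only as an alternative. Of 199 alternative values for the 10 genes, 178 kept direction and side of the threshold, 12 passed newly, 8 lost the call (all Mmp13) and 1 turned: Mmp2, at 0.09 without stretch replicate 3 (-0.37 to 0.09 over the fits that left out arrays). Of 973 values for other named genes none turned. Scaling moved the median change of all genes to at most 0.065. The number of arrays limits what could be called.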
